A study of Bos taurus with 9 samples.

Results

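NFE2L2 and 9 of its best known target genes in oxidative stress, HMOX1, NQO1, GCLM, GCLC, TXNRD1, SRXN1, SLC7A11, OSGIN1 and GSR, were followed in cultured bovine endometrial cells. They are a list of symbols from a known pathway, and the rule that lists them uses no measured value. The list was, however, chosen with earlier results of these data known. All 10 were found among the 30641 symbols of the deposited count table, and all 10 were among the 14874 genes with enough counts to be tested. The lowest count of any of them in any library was 59. The labels call the cells epithelial, and RNA was sequenced from 9 libraries, 3 in each of 3 groups. The untreated control group received no treatment. The reagent alone group received the transfection reagent jetMESSENGER 24 hours after seeding, without RNA. The DPPA3 mRNA group received jetMESSENGER with 500 ng of DPPA3 mRNA made in vitro, also 24 hours after seeding. No group received another mRNA, so an effect of the DPPA3 sequence and an effect of any in vitro made mRNA cannot be told apart. Whether the replicates came from different cultures or animals is not stated in the labels, and the p-values rest on a spread between libraries that may be technical.

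NFE2L2 encodes NRF2, a transcription factor that is held at a low level in resting cells. KEAP1, working with the CUL3 ubiquitin ligase, marks it for degradation. Oxidants and electrophiles modify KEAP1, NRF2 accumulates, pairs with small MAF proteins and binds antioxidant response elements. BACH1 occupies many of the same elements and represses them, HMOX1 most of all. The targets supply and recycle glutathione and thioredoxin, reduce quinones and break down haem. Because NRF2 is controlled largely through the stability of its protein, the NFE2L2 transcript by itself does not report its activity.

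Total counts ran from 3890134 in reagent alone replicate 1 to 13258036 in DPPA3 mRNA replicate 1. DPPA3 had 126334 to 213790 counts in the transfected libraries and 0 to 2 in the others, in keeping with the labels. Untreated control replicate 1 stood apart, because the gene LOC112442408 took 11.0% of its counts, against 3.05% to 4.36% in the other libraries, and its TMM factor was 0.856, against 1.001 to 1.05. Levels below are CPM, counts scaled to a common library size after TMM correction. They are compared between samples and not between genes, since transcript lengths were not used. Of 12 epithelial markers 8 were tested, and their summed level was 8617 to 11066 CPM over all libraries. KRT8 was at 4451 ± 493 CPM in the untreated controls (SD, n = 3), GRHL2 had 0 counts in every library and ESRP1 had 4 over all of them. All 12 stromal markers were tested, and they summed to 30475 to 46495 CPM in the untreated controls, 27979 to 36080 CPM with reagent alone and 29525 to 34766 CPM with DPPA3 mRNA. Endothelial and immune markers summed to at most 14.7 CPM, with 3 of 6 endothelial markers at 3 counts or fewer in every library and PTPRC, the pan-leukocyte marker, likewise. In bulk RNA, a change in the share of a cell type and a change within its cells cannot be told apart, and the part of the marker levels in the values below was not tested.

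None of the 10 genes passed the test in any comparison. With edgeR's quasi-likelihood fit, p-values were adjusted over all genes tested (Benjamini-Hochberg). In DPPA3 mRNA against reagent alone 0 of 10 were called, where 0.00672% of all genes (1 gene) were called. The same count was 0 of 10 in DPPA3 mRNA against untreated control, where 0.0134% of all genes were called (2 genes, or 7 with the replicate number as a block). In reagent alone against untreated control it was 0 of 10, with 0% of all genes called. With DPPA3 itself left out of the library sizes and the test, 0 genes were called in either comparison of DPPA3 mRNA. At an unadjusted p under 0.05 the members numbered 0 in every comparison, while 1.67%, 3.91% and 10.2% of all genes lay under that limit, in the same order. With the replicate block, SLC7A11 lay under it in DPPA3 mRNA against reagent alone, as did 2.43% of all genes. It also did so in reagent alone against untreated control, as did 19.6% of all genes. DESeq2 also called 0 members in each comparison. With it 0, 0 and 1 of them had an unadjusted p under 0.05, against 1.59%, 3.29% and 8.29% of all genes.

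The fitted differences were small. The median log2 fold change over the 10 genes was -0.03 when DPPA3 mRNA was set against reagent alone. It was 0.11 when DPPA3 mRNA, and 0.12 when reagent alone, was set against untreated control. Over all genes tested the medians were 0.0027, 0.0017 and -0.0099. In the first comparison 5 of the 10 values lay above 0, and in each of the other comparisons 6 of 10 did, while 50.4%, 50.2% and 49.2% of all genes lay above 0. Not a single member had its lowest value in either group above the highest in the other. Such a gap was found for 8.9%, 8.1% and 14.1% of all genes. Over all genes tested, equal replicate numbers deviated together most in DPPA3 mRNA against untreated control. Over the 10 members it was not so. Their deviations from group means correlated between equal numbers at 0.75, 0.65 and 0.65 in that comparison. The values were 0.70, 0.92 and 0.75 in reagent alone against untreated control, and 0.86, 0.70 and 0.66 in DPPA3 mRNA against reagent alone. In DPPA3 mRNA against untreated control 3 of 10 members lay on 1 side of 0 in all 3 equal-numbered pairs, against 36.9% of all genes. These were TXNRD1 (log2 differences of 0.46, 0.08 and 0.16), SLC7A11 (0.40, 0.060 and 0.0045) and GCLC (0.034, 0.036 and 0.22), each higher with DPPA3 mRNA, and with the replicate block their edgeR adjusted p was 0.52, 0.79 and 0.86. In reagent alone against untreated control, NFE2L2, NQO1, TXNRD1, SRXN1 and SLC7A11 were higher in all 3 such pairs, and the other members were mixed. In DPPA3 mRNA against reagent alone, NFE2L2 and SLC7A11 were lower and GSR higher in all 3, the others mixed. The share over all genes was not computed for these comparisons. The comparisons share groups pairwise, so their values are not independent of each other.

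The precision differed between the genes. For DPPA3 mRNA against reagent alone, the 95% interval of the fitted difference lay wholly within a 2-fold change in either direction for 9 of the 10 genes, SLC7A11 being the exception. It did so for 9 of 10 in DPPA3 mRNA against untreated control, where OSGIN1 was the exception, and for 8 of 10 in reagent alone against untreated control, where SLC7A11 and OSGIN1 were. Over all genes tested 65.7%, 60.5% and 53.7% had such an interval. These intervals are not adjusted for the number of genes.

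**Figure D1:**
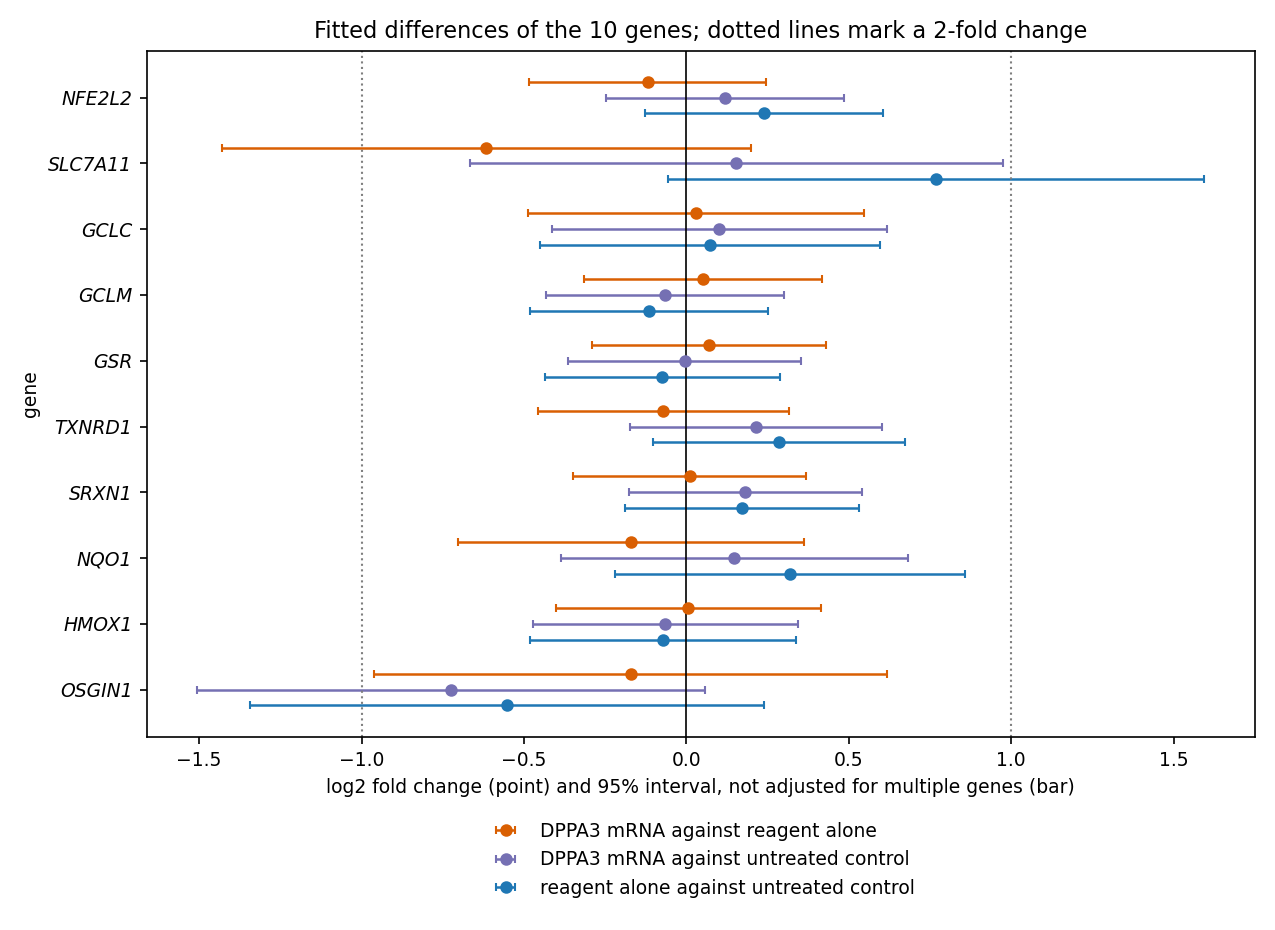
Fitted log2 fold change (points, x axis) with its 95% interval (bars, not adjusted for multiple genes) for each of the 10 genes (y axis) in the 3 comparisons, from the edgeR fit over 9 libraries. Every interval includes 0, and only those of SLC7A11 and OSGIN1 reach past the dotted lines at a 2-fold change.

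NFE2L2 itself measured 171, 261 and 264 CPM in untreated control replicates 1 to 3. With reagent alone it was at 261, 275 and 284 CPM, and with DPPA3 mRNA at 231, 265 and 259 CPM. Untreated control replicate 1 was the lowest of the 9 libraries, and the other 8 spanned 231 to 284 CPM. The group means were 232 ± 52.8, 274 ± 11.6 and 252 ± 18.1 CPM (SD, n = 3), in the order untreated control, reagent alone, DPPA3 mRNA, and the groups overlapped. The log2 fold change of reagent alone over untreated control was 0.24 (SE 0.17, edgeR adjusted p 0.53), and without untreated control replicate 1 it was 0.07. DPPA3 mRNA stood at -0.12 against reagent alone (SE 0.17, edgeR adjusted p 0.9998).

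The partners and inhibitors of NRF2 showed no call either. KEAP1, which directs NRF2 to degradation, was at 148, 103 and 119 CPM in the untreated controls, 114, 95.3 and 102 CPM with reagent alone and 115, 104 and 114 CPM with DPPA3 mRNA. Its level was highest in untreated control replicate 1, the library in which NFE2L2 was lowest. BACH1, the repressor of HMOX1, was at 46.0 ± 7.03, 46.3 ± 6.51 and 49.9 ± 6.27 CPM in the 3 groups in the same order (SD, n = 3). BACH2, its relative, was scarce, at 5.96 ± 3.91, 2.66 ± 1.56 and 3.54 ± 1.004 CPM (SD, n = 3). Its log2 fold change of -1.22 for reagent alone over untreated control (SE 0.57, edgeR adjusted p 0.47) was -0.55 without untreated control replicate 1 and -0.76 without reagent alone replicate 3. Those libraries held 10.5 and 0.95 CPM, against 3.79 and 3.62 CPM in the other controls and 3.98 and 3.05 CPM in the other reagent alone libraries. Among the small MAF genes, whose proteins pair with NRF2, MAFG was at 51.9 ± 7.38, 49.7 ± 3.38 and 54.9 ± 7.43 CPM. MAFK was at 76.5 ± 39.7, 57.1 ± 14.7 and 61.2 ± 12.3 CPM, and MAFF at 8.77 ± 4.80, 7.65 ± 3.73 and 6.85 ± 3.29 CPM (SD, n = 3). MAFK and MAFF were highest of the 9 libraries in untreated control replicate 1, at 122 and 14.02 CPM.

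SLC7A11, the cystine carrier that feeds glutathione synthesis, had the largest fitted differences among the 10 genes in DPPA3 mRNA against reagent alone and in reagent alone against untreated control. It measured 11.1, 19.5 and 8.12 CPM in untreated control replicates 1 to 3. With reagent alone it was at 24.2, 27.6 and 14.7 CPM, and with DPPA3 mRNA at 14.7, 20.3 and 8.15 CPM. The reagent alone mean was the highest, at 22.1 ± 6.70 CPM, against 12.9 ± 5.89 CPM in the untreated controls and 14.4 ± 6.09 CPM with DPPA3 mRNA (SD, n = 3). The groups overlapped, because the lowest reagent alone library lay below the highest library of either other group. Libraries of the same number resembled each other. In all 3 groups replicate 2 held the highest value and replicate 3 the lowest. Between equal numbers 1 to 3, reagent alone lay 1.12, 0.50 and 0.85 log2 units above untreated control. DPPA3 mRNA lay at -0.72, -0.44 and -0.84 against reagent alone. The overlap of groups, and the SE and p-values that follow, take no account of this likeness. With the replicate block SLC7A11 was still not called.

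The log2 fold change of SLC7A11 was 0.77 for reagent alone over untreated control (SE 0.38, 95% interval -0.06 to 1.59, edgeR adjusted p 0.47). For DPPA3 mRNA over reagent alone it was -0.62 (SE 0.38, 95% interval -1.43 to 0.20, edgeR adjusted p 0.9998), with -0.33 without DPPA3 mRNA replicate 3 and -0.94 without DPPA3 mRNA replicate 2. In those comparisons 9.26% and 8.49% of all genes tested had a larger difference in either direction. DPPA3 mRNA over untreated control gave 0.15 (SE 0.38, edgeR adjusted p 0.93). When untreated control replicate 2, the highest control, was left out, reagent alone stood 1.21 above untreated control on the log2 scale (edgeR adjusted p 0.082, and 0.082 to 0.93 over the alternatives). With untreated control replicate 3, the lowest control, left out, the same difference was 0.52.

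**Figure D2:**
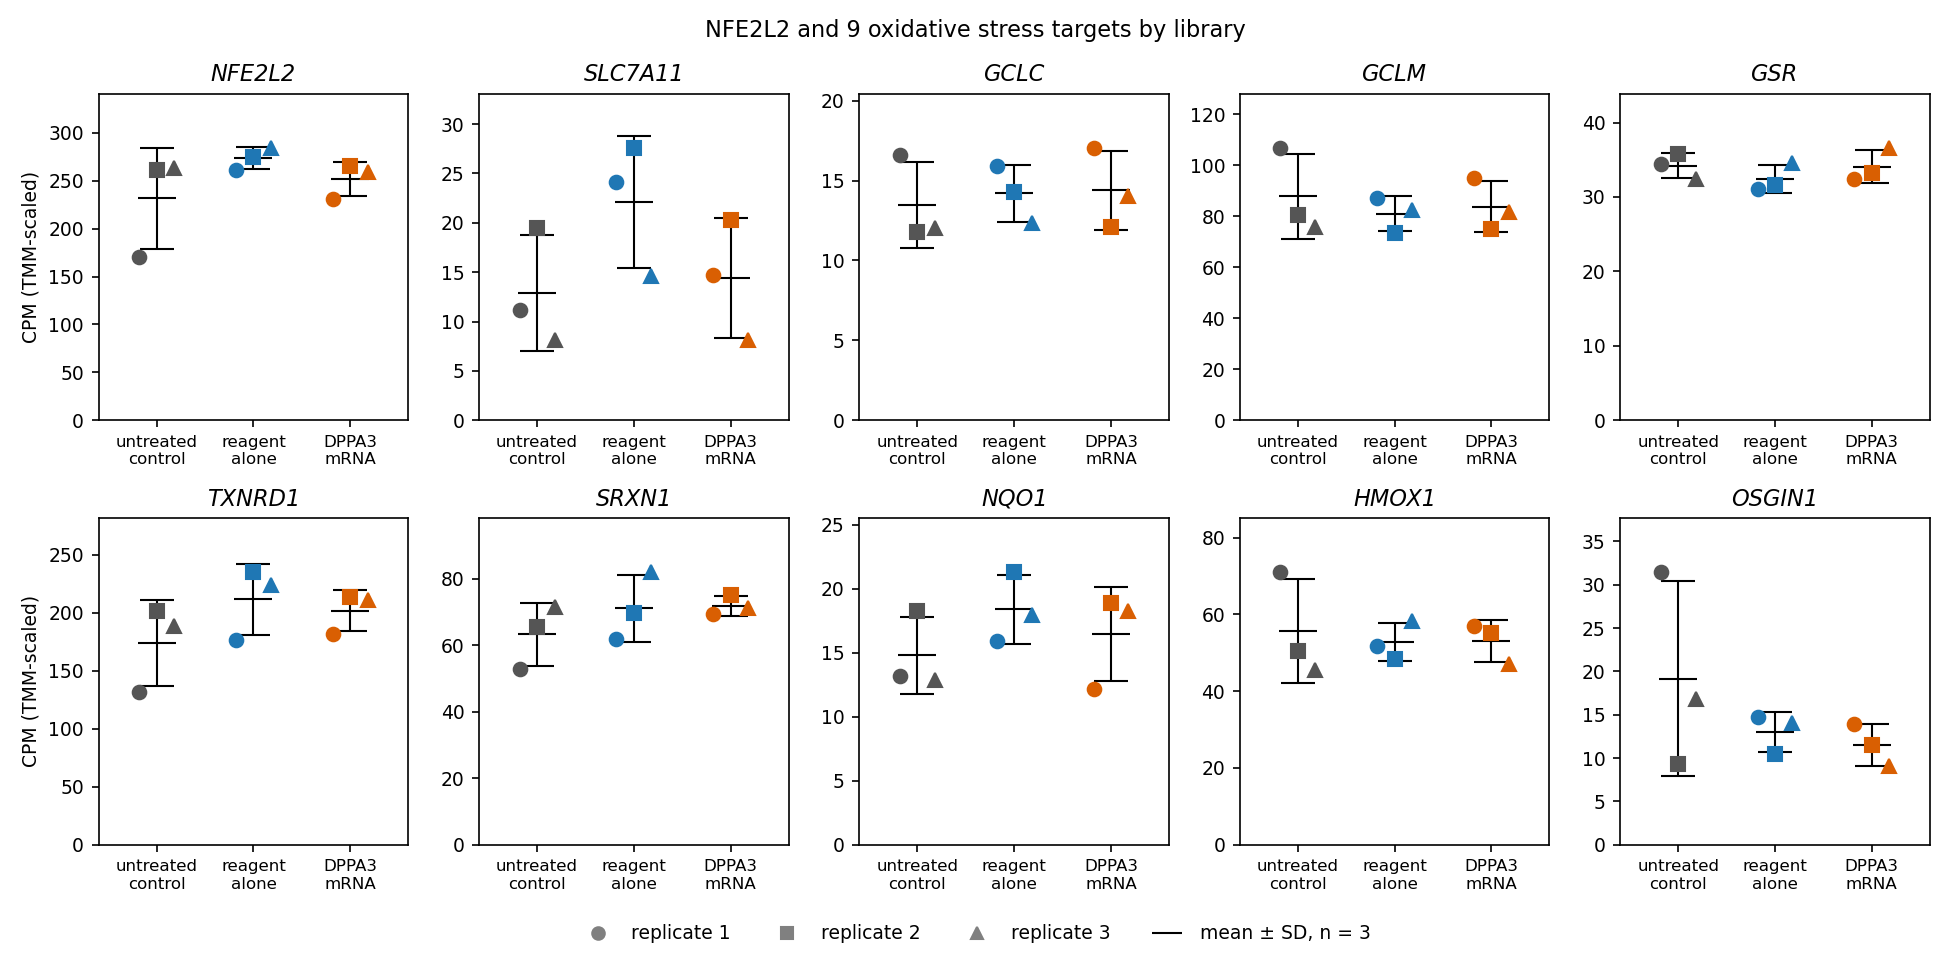
CPM of each gene (y axis, from 0, with its own scale) in each library, by group (x axis), with symbols for the replicate number and black bars for the mean ± SD (n = 3). The groups overlap in every panel. SLC7A11 keeps the order replicate 2, 1, 3 in each group, and untreated control replicate 1 is the extreme library for NFE2L2, TXNRD1, SRXN1, GCLM, HMOX1 and OSGIN1.

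GCLC and GCLM encode the catalytic and modifier subunits of glutamate-cysteine ligase, the first step of glutathione synthesis. GCLC measured 16.6, 11.8 and 12.0 CPM in the untreated controls, 15.9, 14.3 and 12.4 CPM with reagent alone and 17.0, 12.1 and 14.01 CPM with DPPA3 mRNA. GCLM measured 107, 80.7 and 76.0 CPM in the untreated controls, 87.2, 73.5 and 82.6 CPM with reagent alone and 94.9, 74.98 and 81.6 CPM with DPPA3 mRNA. Both subunits were highest in replicate 1 of every group, so the libraries numbered 1 were the high ones whatever the treatment. The fitted differences of GCLC ran from 0.03 to 0.10 and those of GCLM from -0.12 to 0.05 (log2) over the 3 comparisons, with edgeR adjusted p from 0.765 upward. GCLM had a log2 fold change of -0.12 for reagent alone over untreated control (SE 0.17), which became 0.06 without untreated control replicate 1.

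Of the recycling enzymes, GSR, the glutathione reductase, was the steadiest of the 10 genes. It ranged from 31.1 CPM in reagent alone replicate 1 to 36.6 CPM in DPPA3 mRNA replicate 3, a ratio of 1.18 between the highest and the lowest library. Its means were 34.2 ± 1.70, 32.4 ± 1.83 and 34.1 ± 2.20 CPM in untreated control, reagent alone and DPPA3 mRNA (SD, n = 3). The other 9 genes had ratios of 1.44 (GCLC) to 3.46 (OSGIN1).

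TXNRD1, the cytosolic thioredoxin reductase, measured 131, 201 and 188 CPM in the untreated controls. It was at 177, 235 and 223 CPM with reagent alone and at 181, 213 and 211 CPM with DPPA3 mRNA. Replicate 1 was the lowest library of each group, and untreated control replicate 1 the lowest of all. The log2 fold change over untreated control was 0.29 for reagent alone (SE 0.18, edgeR adjusted p 0.50) and 0.22 for DPPA3 mRNA (SE 0.18, edgeR adjusted p 0.85). These values were 0.13 and 0.06 without untreated control replicate 1, and 0.41 and 0.33 without untreated control replicate 2. DPPA3 mRNA stood at -0.07 against reagent alone (SE 0.18).

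SRXN1, sulfiredoxin, which restores overoxidised peroxiredoxins, measured 52.9, 65.4 and 71.6 CPM in the untreated controls. It was at 62.0, 69.6 and 81.9 CPM with reagent alone and at 69.3, 75.2 and 71.1 CPM with DPPA3 mRNA. Here too untreated control replicate 1 was the lowest of the 9 libraries. The log2 fold changes over untreated control were 0.17 for reagent alone and 0.18 for DPPA3 mRNA (SE 0.17 for both, edgeR adjusted p 0.64 and 0.85), and 0.07 and 0.08 without untreated control replicate 1. Against reagent alone DPPA3 mRNA stood at 0.01.

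NQO1, a quinone reductase widely used as a readout of NRF2, measured 13.2, 18.3 and 12.9 CPM in the untreated controls. It was at 15.9, 21.3 and 17.96 CPM with reagent alone and at 12.2, 18.9 and 18.2 CPM with DPPA3 mRNA. Its lowest library was DPPA3 mRNA replicate 1 and its highest reagent alone replicate 2. The group means of 14.8 ± 3.03, 18.4 ± 2.70 and 16.4 ± 3.68 CPM (SD, n = 3; untreated control, reagent alone, DPPA3 mRNA) differed by about the spread between replicates. The log2 fold change of reagent alone over untreated control was 0.32 (SE 0.25, edgeR adjusted p 0.56). It was 0.20 without reagent alone replicate 2 and 0.50 without untreated control replicate 2. The value of DPPA3 mRNA over reagent alone was -0.17 (SE 0.25).

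HMOX1, the inducible haem oxygenase and among the most responsive stress genes in many cells, measured 70.9, 50.4 and 45.6 CPM in the untreated controls. With reagent alone it was at 51.8, 48.4 and 58.1 CPM, and with DPPA3 mRNA at 57.0, 55.2 and 46.9 CPM. The highest and the lowest of the 9 libraries were both untreated controls. DPPA3 mRNA stood at 0.0064 on the log2 scale against reagent alone, the smallest difference of the 10 genes in that comparison (SE 0.19, 95% interval -0.40 to 0.42, edgeR adjusted p 0.9998). Over untreated control the values were -0.07 for either treated group, and both became 0.15 without untreated control replicate 1.

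OSGIN1, an oxidative stress-induced growth inhibitor, had the largest fitted difference of the 10 genes in DPPA3 mRNA against untreated control. It measured 31.4, 9.31 and 16.8 CPM in the untreated controls, 14.7, 10.4 and 14.02 CPM with reagent alone and 13.9, 11.5 and 9.08 CPM with DPPA3 mRNA. Untreated control replicate 1 held the highest value of all libraries, and untreated control replicate 2 was lower than every library but 1. The log2 fold change over untreated control was -0.72 for DPPA3 mRNA (SE 0.36, 95% interval -1.51 to 0.06, edgeR adjusted p 0.85) and -0.55 for reagent alone (SE 0.37, edgeR adjusted p 0.51). These became -0.18 and -0.0033 when untreated control replicate 1 was left out. They became -1.06 (edgeR adjusted p 0.19, and 0.19 to 0.9998 over the alternatives) and -0.89 (edgeR adjusted p 0.093, and 0.093 to 0.9998 over the alternatives) when untreated control replicate 2 was left out, so their size rested on single controls.

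The 10 genes did not vary as a block. In untreated control replicate 1, NFE2L2, TXNRD1 and SRXN1 were at their lowest of the 9 libraries, at deviations of -0.55, -0.56 and -0.37 log2 units from the gene's mean. In the same library HMOX1, GCLM and OSGIN1 were at their highest, at 0.41, 0.35 and 1.21. The mean log2 CPM over the 10 genes therefore hid these deviations, at 5.44 in that library against 5.29 to 5.53 in the other 8. By replicate this mean was 5.44, 5.41 and 5.29 in the untreated controls and 5.43, 5.48 and 5.32 with DPPA3 mRNA. With reagent alone it was 5.51, 5.53 and 5.51, above every library of the other groups, a difference that was not tested. Without this library the differences of GCLC from untreated control were wider, at 0.25 for reagent alone and 0.28 for DPPA3 mRNA, against 0.07 and 0.10 with it. That of SLC7A11 for reagent alone was little moved, at 0.68 against 0.77.

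**Figure D3:**
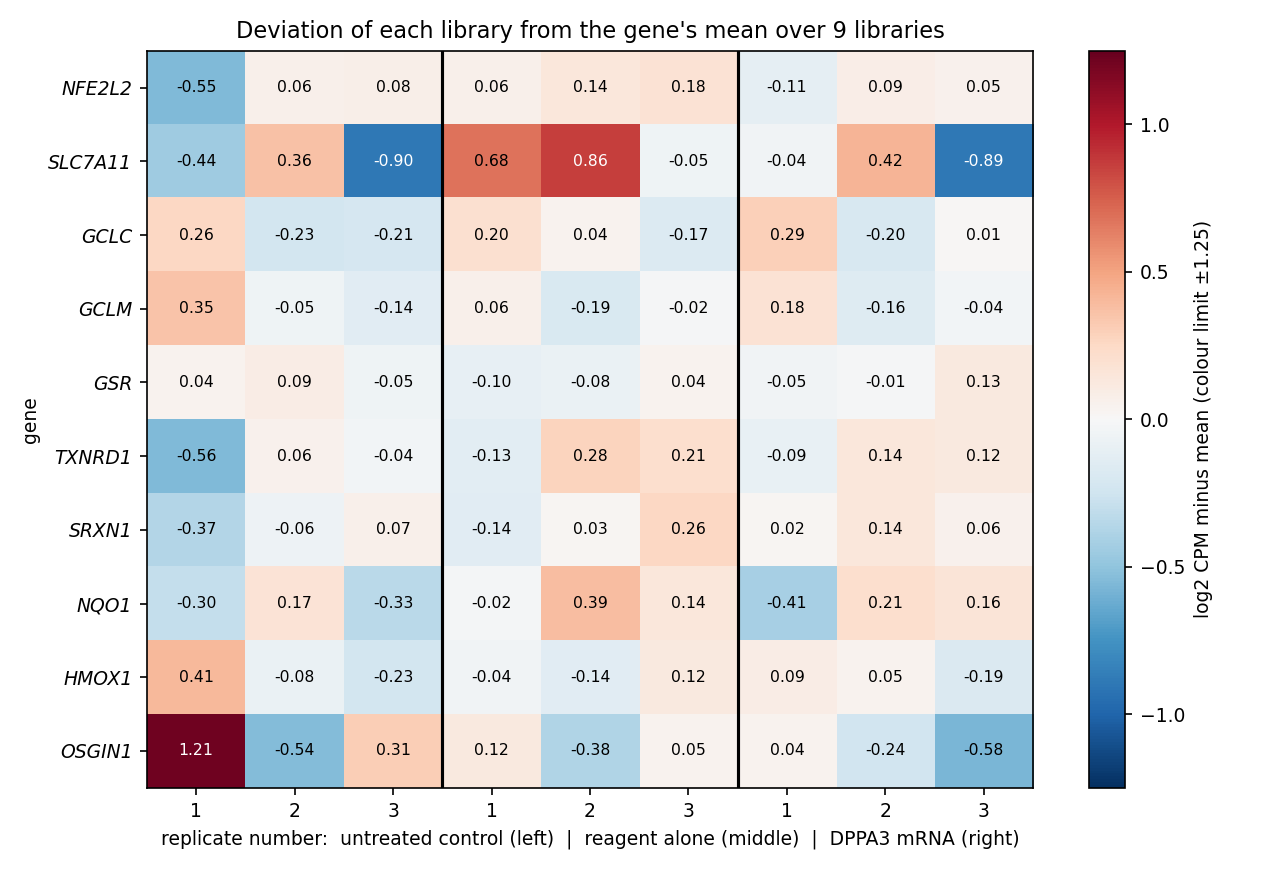
Deviation of log2 CPM from the gene's mean over the 9 libraries (colour and printed values) for each gene (y axis) and library (x axis, 3 groups set apart by lines, replicate numbers below). The first column, untreated control replicate 1, holds values from -0.56 for TXNRD1 to 1.21 for OSGIN1, and SLC7A11 shows replicate 3 at or below the other libraries of each group.

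Likeness to the set was measured as Pearson's r over the 9 libraries between a gene's log2 CPM and the mean z-score of the 10 members, for 10433 other named genes with a mean of at least 5 CPM. The genes most alike to this mean were BCDIN3D (r = 0.91), SDE2 (0.90), HMGN1 (0.89), BUD31 (0.89) and MDFIC (0.88). Each member was also set against the mean z-score of the other members. There r ran from -0.56 (OSGIN1) to 0.14 (NQO1), and most values lay below 0. Likeness to the mean is therefore not likeness to the single members. The libraries share 3 groups and replicate numbers, and the highest r of so many genes is large by selection, so these values are a description only.

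The wider pathway was described with 79 further genes, of which 78 were matched by symbol and 75 were tested. GSTA1, ALDH3A1 and UGT1A6 had too few counts. In DPPA3 mRNA against reagent alone, 0 of 75 were called by edgeR, 0 had an unadjusted p under 0.05, and the median log2 fold change was -0.0032. In DPPA3 mRNA against untreated control, 0 of 75 were called, 2 (2.67%) had an unadjusted p under 0.05, against 3.91% of all genes, and the median was 0.03. In reagent alone against untreated control, 0 of 75 were called, 3 (4%) had an unadjusted p under 0.05, against 10.2% of all genes, and the median was -0.03. Without untreated control replicate 2 these counts were 10 (13.33%) and 20 (26.7%) of 75, against 18.7% and 27.1% of all genes tested then, still with 0 called. With the replicate block the first was 6 (8%), against 9.35% of all genes. DESeq2 called 0 of the 75 in each comparison. By role, the medians for DPPA3 mRNA against reagent alone ran from -0.09 for 6 genes of superoxide and peroxide removal to 0.03 for 14 regulators of NFE2L2 and 0.03 for 8 genes of haem and iron handling.

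**Figure D4:**
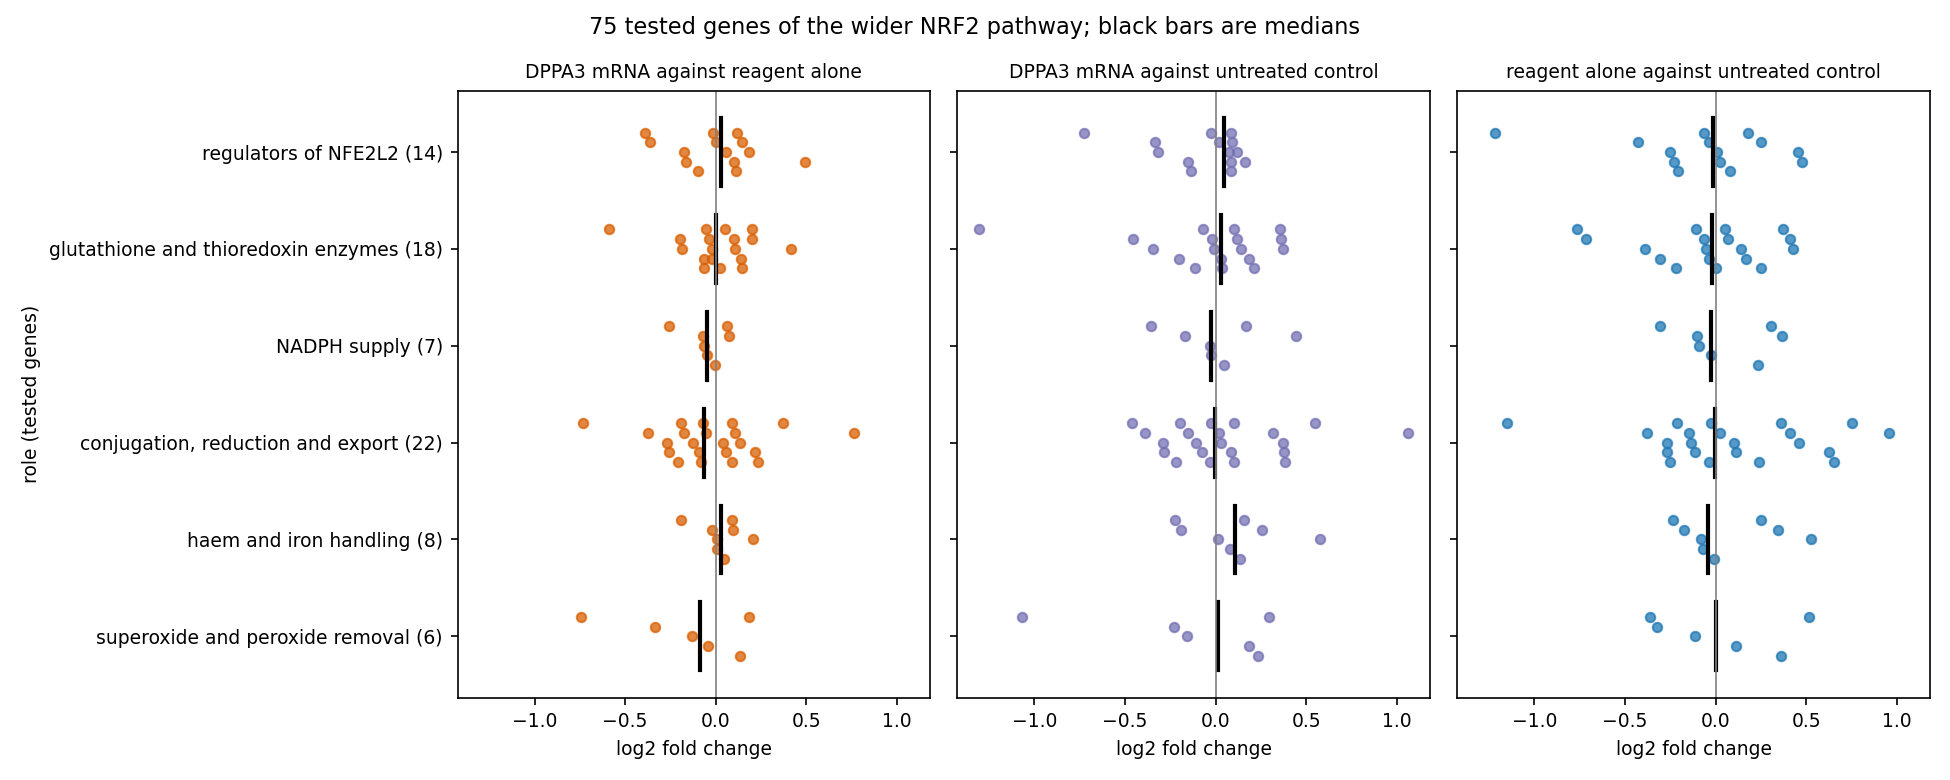
Fitted log2 fold change (x axis) of 75 tested genes of the wider NRF2 pathway by role (y axis, number of genes in brackets), 1 panel per comparison, with a black bar at each median. Points scatter on both sides of 0 in every role with medians near 0, and the widest differences are seen against untreated control.

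Genes of the wider list with the smallest p belonged to different roles. IDH1, a cytosolic source of NADPH, was at 34.3 ± 4.47 CPM with DPPA3 mRNA and 25.1 ± 2.94 CPM in the untreated controls (SD, n = 3), a log2 fold change of 0.44 (SE 0.18, edgeR adjusted p 0.85). Every transfected library lay above every control for IDH1, and reagent alone was at 32.5 ± 0.80 CPM. A gap in either direction between DPPA3 mRNA and untreated control was found for 6.67% of the 75 wider genes, against 8.1% of all genes. TXNIP, the thioredoxin-binding protein gene, was at 193 ± 43.4 CPM with DPPA3 mRNA and 151 ± 24.4 CPM in the untreated controls (log2 fold change 0.35, SE 0.18).

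For reagent alone over untreated control the smallest p values were those of GSTA4, BTRC and CAT. GSTA4, a glutathione transferase of lipid peroxidation products, was at 10.6 ± 2.23 against 6.70 ± 0.72 CPM (SD, n = 3), or 0.65 on the log2 scale (SE 0.28, edgeR adjusted p 0.47). CAT, catalase, was at 78.4 ± 6.46 against 60.9 ± 11.9 CPM (log2 fold change 0.36, SE 0.17, edgeR adjusted p 0.47). BTRC, a ubiquitin ligase subunit that can also direct NRF2 to degradation, was at 55.5 ± 8.35 against 40.3 ± 9.22 CPM (log2 fold change 0.45, SE 0.20). BTRC led the list by p in DPPA3 mRNA against reagent alone as well, at 43.1 ± 2.25 CPM with DPPA3 mRNA (log2 fold change -0.36, SE 0.20, edgeR adjusted p 0.9998), and every transfected library lay below every reagent alone library. AKR1A1, an aldehyde reductase, and ME1, the cytosolic malic enzyme, followed there with log2 fold changes of 0.22 (SE 0.15) and -0.26 (SE 0.21).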

How the data were processed

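The authors deposited raw read counts per gene symbol, 1 column per library. Trimmomatic, HISAT2, HTSeq and edgeR appear in the submitters' processing notes. Their versions, the genome build, the annotation and any use of strand are not given in the sources used, and reads of overlapping or antisense genes may be shared. Counts were tested as deposited with edgeR 4.0.16 (R 4.3.3): filterByExpr with a minimum count of 10, TMM factors, 1 quasi-likelihood fit of the 3 groups, calls where the p adjusted over 14874 genes (Benjamini-Hochberg) was under 0.05. The common dispersion gave a coefficient of variation of 0.26. Each SE is the log2 difference over the root of its F statistic. A log2 CPM adds 0.5 to each count. Replicates differed beyond sampling noise (chi-square of 13.5 or more per degree of freedom). The members, lists and rules were chosen with earlier results of these data known. Named were all members, KEAP1, the BACH and small MAF genes, and the 3 wider genes with the smallest p per comparison, of which 1 is not reported here. The fit was tested on simulated data.

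Deviations from group means correlated between equal replicate numbers of DPPA3 mRNA and untreated control at 0.29, 0.28 and 0.13 over all genes tested. All lie above 0.1, while no label gives a pairing. In the other comparisons equal numbers also correlated above unequal ones, at lower values given below. The values reported come from the fit without the block unless the block is named, so their SE and p-values take no account of a pairing. Alternatives were DESeq2 size factors, the DESeq2 1.42.0 Wald test, no filter, a fit to only the 2 groups at hand, a block for replicate number, library sizes without DPPA3, and each of the 9 libraries left out.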

Additional observations from a re-analysis of the deposited data

How the results depend on the processing

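Over 15 alternatives 0 members and 0 genes of the wider list were called in each comparison. An unadjusted p under 0.05 was found for 0 to 3 members, against 1.31% to 27.1% of all genes. Of the 75 wider genes up to 1 had such a p for DPPA3 mRNA over reagent alone. Up to 10 did for DPPA3 mRNA over untreated control and up to 20 for reagent alone over it. The last 2 counts came without untreated control replicate 2, where 18.7% and 27.1% of all genes lay under that limit. With no filter the calls among all genes numbered 66 (DPPA3 mRNA and reagent alone), 69 (DPPA3 mRNA and untreated control) and 18 (reagent alone and untreated control), and with the DESeq2 test 10, 12 and 2, and the cause was not tested. With DPPA3 taken out of the library sizes and the test, the first 2 counts were 0 and 0. Single libraries left out gave 1 to 20, 1 to 26 and 0 to 1 genes, the first 2 highest without DPPA3 mRNA replicate 1 and the last without reagent alone replicate 1. The median of the members for DPPA3 mRNA against untreated control then ranged from -0.0076 (without untreated control replicate 3) to 0.12, and was 0.03 without DPPA3 mRNA replicate 2.

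With the replicate block 2 and 7 genes were called in the comparisons of DPPA3 mRNA with reagent alone and untreated control, and 0 in the third. It changed no call of a member or of the wider list. Deviations of equally numbered libraries correlated at 0.12, 0.09 and 0.07 between DPPA3 mRNA and reagent alone. Between reagent alone and untreated control the values were 0.14, 0.12 and 0.07, against at most 0.034 for unequal numbers. The labels of those samples share only a number. Each library was most alike to that of its own number, which hints at pairing in the data but is not part of the design. SLC7A11 with the block stood at 0.81 for reagent alone over untreated control (unadjusted p 0.0020, edgeR adjusted p 0.19) and at -0.66 for DPPA3 mRNA over reagent alone (unadjusted p 0.0068, edgeR adjusted p 0.9993). HMOX1 for DPPA3 mRNA over reagent alone turned to -0.0083 with the block and to -0.00040 with DPPA3 left out. GSR for DPPA3 mRNA over untreated control turned to 0.0063 with no filter.

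Of 150 member values in each comparison under an alternative, 15, 13 and 5 had the other sign, and those were at most 0.17 in size. When single libraries were left out, the log2 fold changes for DPPA3 mRNA over reagent alone ranged from -0.054 to 0.087 for HMOX1, -0.28 to 0.0013 for NQO1, -0.052 to 0.12 for GCLM, -0.11 to 0.14 for GCLC, -0.077 to 0.13 for SRXN1 and -0.18 to 0.0087 for TXNRD1. For DPPA3 mRNA over untreated control they ranged from -0.052 to 0.22 for NFE2L2, -0.19 to 0.15 for HMOX1, -0.16 to 0.10 for GCLM, -0.039 to 0.28 for GCLC, -0.17 to 0.59 for SLC7A11 and -0.058 to 0.031 for GSR. For reagent alone over untreated control they ranged from -0.20 to 0.15 for HMOX1, -0.21 to 0.057 for GCLM and -0.013 to 0.25 for GCLC. The depth of reagent alone replicate 1 put 1 count at about 0.25 CPM, so counting error is largest there for NQO1, GCLC and OSGIN1.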
